A study of Mus musculus with 20 samples.

Results

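Chemokines are small secreted proteins that direct the movement of immune cells. The genes described here are 9 chemokines and 1 chemokine receptor, most of which act on monocytes, macrophages or T cells: Ccl2, Ccl5, Ccl6, Ccl8, Ccl9, Cxcl1, Cxcl10, Cxcl12, Cxcl14 and Ccr2. They were chosen by name. The array carried 20 probe sets (groups of short probes against 1 transcript) that were annotated to exactly 1 of these 10 symbols, out of 45037 probe sets without the manufacturer's controls and 18193 genes. Where a gene had several, the one with the highest mean log2 intensity stands for it. All 10 of these probe sets passed the filter on low values, an intensity above 100 in at least 5 of 20 arrays, as did 10603 genes in all.

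RNA came from the visceral fat of 20 C57BL/6J female mice, hybridized singly to 20 arrays, and the mice formed 4 groups of 5. HF pregnant mice were fed a diet with 58% fat and were at E18.5, and control pregnant mice were at the same stage on a diet with 10% fat. HF non pregnant and control non pregnant mice had the same diets without pregnancy, although their labels also carry the age E18.5. Per the study's methods the diets began before mating and lymph nodes that could be seen were removed from the fat. The labels call the depot visceral, which in the methods covers gonadal and mesenteric fat, and the legend of the study's array figure calls it mesenteric. The RNA is of whole tissue, so fewer cells of a type and less RNA per cell cannot be told apart in any value below.

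A chemokine is bound by G protein-coupled receptors on leukocytes, which then move towards its source. Ccl2 and Ccl8 are monocyte chemoattractant proteins, and Ccr2, the receptor of Ccl2, draws monocytes out of the blood and into inflamed tissue. In obese fat, Ccl2 and Ccr2 are known for the recruitment of macrophages. Ccl6 and Ccl9, which are rodent chemokines, are made by cells of the myeloid lineage and bind Ccr1. Ccl5 is released by activated T cells and NK cells. Cxcl10 is induced by interferon and attracts T cells through Cxcr3. Cxcl12 is made by stromal cells and holds lymphocytes and progenitors through Cxcr4. Cxcl1 attracts neutrophils through Cxcr2, and Cxcl14 is a chemokine of epithelia and other tissues.

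On mouse chromosome 11 the genes lie in a pair of clusters. The order of genes in RefSeq was Ccl2, Ccl7, Ccl11, Ccl12, Ccl8 and Ccl1 in one cluster and Ccl5, Ccl9, Ccl6, Ccl3 and Ccl4 in the other. RefSeq promoters were at hand for 8 of the 10 genes, and the 250 bases before the start of each were searched on both strands for a kappa B motif (GGG and TTCC with 3 bases of any kind between) and an interferon-stimulated response element (GAAA and GAAA with 2 bases of any kind between). The kappa B letters stood in 3 of the 8 promoters (Cxcl1, Cxcl10 and Ccl9), against 4.65% of 32851 promoters, and the interferon letters stood in 2 of 8 (Cxcl10 and Cxcl14), against 2.98%. The windows of Cxcl10 and Cxcl1 that hold these matches are shown because both genes are textbook targets of inflammatory signals. Their array values, given further on, do not allow a contrast of these genes, because the Cxcl1 set used may not read Cxcl1. The capitals mark the matches (GRCm38.p6, both 5′ to 3′ on the strand of the gene; Cxcl10 on the minus strand at chr5:92348974-92349112, Cxcl1 on the plus strand at chr5:90891146-90891194).
Cxcl10: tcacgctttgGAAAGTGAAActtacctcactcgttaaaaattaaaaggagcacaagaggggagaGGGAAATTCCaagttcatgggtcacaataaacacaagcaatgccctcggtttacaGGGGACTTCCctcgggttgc
Cxcl1: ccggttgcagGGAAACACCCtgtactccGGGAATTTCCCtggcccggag
In Cxcl10 the interferon letters began 213 bases before the start, and the kappa B matches began 159 and 104 bases before it. In Cxcl1 the first stretch of capitals is a kappa B match on the opposite strand, and the second holds a pair of overlapping matches, 1 on each strand. A match of letters is a description of the sequence and no evidence of binding.

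Array medians lay between 60.7 and 64.7, and between 17646 and 18833 probe sets exceeded 100. The normalization gives all arrays one distribution, so this likeness in level is no check of the arrays. Any pair of arrays correlated with r of 0.925 to 0.996. The fat cell hormone Adipoq had intensities of 14336 to 24630, the macrophage marker Adgre1 308 to 733 and Cd68 139 to 652. RNA of fat cells and macrophages was thus present on all 20 arrays. The T cell marker Cd3e ranged from 113 to 385. Its lowest values were close to the threshold of 100 and do not show T cell RNA on every array. A pair of arrays, control pregnant mouse 2 and control non pregnant mouse 4, stood apart with pancreatic acinar genes at 4.86 and 4.47 on the log2 scale above their means, and calls that change without these arrays are given with and without them.

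No chemokine gene passed the test across the whole array in any comparison. The means of Cxcl12 and Cxcl10 were higher in HF than in control mice, and Ccl8 was lowest in HF pregnant mice. Differences were tested with limma over 19802 probe sets, with Benjamini-Hochberg adjustment of p over all of them and a threshold of 0.05. In HF mice, pregnant compared with non pregnant, 0 of 10 genes passed, against 0.0252% of all probe sets, and 1 of 10 had an unadjusted p under 0.05 (Ccl8, lower), against 4.66%. In control mice, pregnant compared with non pregnant, 0 of 10 passed, against 0% of all, and 0 of 10 had an unadjusted p under 0.05, against 2.9%. In pregnant mice, HF compared with control, 0 of 10 passed, against 0.192%, and 1 of 10 had an unadjusted p under 0.05 (Ccl8, lower), against 12.8%. In non pregnant mice, HF compared with control, 0 of 10 passed, against 0%, and 1 of 10 had an unadjusted p under 0.05 (Cxcl12, higher), against 17.7%. With HF compared to control over both states of pregnancy 0 of 10 passed, against 1.24%, and 2 of 10 had an unadjusted p under 0.05 (Cxcl12 and Cxcl10, higher), against 29.6%. With pregnant compared to non pregnant over both diets 0 of 10 passed, against 0.0101%, and 0 of 10 had an unadjusted p under 0.05, against 4.59%. For the contrast of these pregnancy responses between HF and control mice 0 of 10 passed, against 0%, and 1 of 10 had an unadjusted p under 0.05 (Ccl8), against 3.08%. No comparison had more than 2 of the 10 genes under this p, and with 1 or 2 genes a share above the background is not a result about them. In no comparison of a pair of groups did all 5 values of a gene lie on one side of all 5 of the other group (0 of 10 in each), against 1.53%, 0.217%, 3.51% and 2.19% of probe sets in the first 4 comparisons in the order above.

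**Figure D1:**
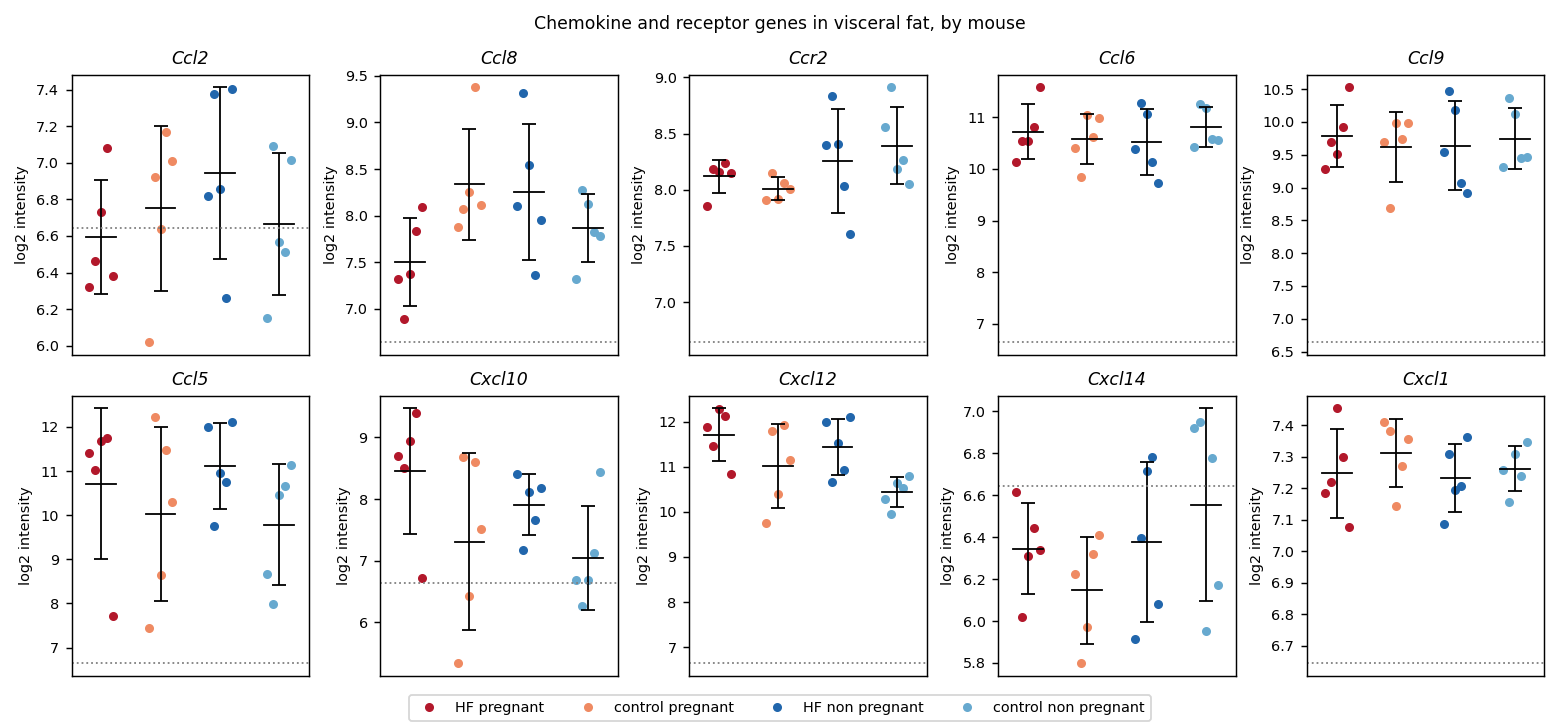
Log2 intensity of the 10 genes, each point 1 mouse; bars give mean and SD by group (n = 5), and the dotted line is an intensity of 100. Ccl8 sits low in HF pregnant mice, Cxcl12 sits low in control non pregnant mice, and Ccl5 spreads over 4.77 log2 units.

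Ccl8, which lies in the same cluster as Ccl2, had the smallest p of the 10 genes in both comparisons of HF pregnant mice, where its mean was lower. Its intensities were 160.2, 119, 166, 229 and 274 in HF pregnant mice, against 275, 638, 374, 165 and 248 in HF non pregnant mice. In control pregnant mice they were 236, 269, 304, 665 and 278, and in control non pregnant mice 161, 310, 280, 227 and 220. The values of HF pregnant mice overlapped with those of each other group, and 1 mouse in each of the HF non pregnant and control pregnant groups lay far above the rest, at 638 and 665. On the log2 scale Ccl8 was at -0.75 in HF pregnant relative to HF non pregnant mice (SE 0.33, 95% interval -1.45 to -0.05, n = 5 per group, limma, unadjusted p = 0.036, adjusted p = 1). Relative to control pregnant mice the difference was -0.83 (SE 0.33, unadjusted p = 0.0217, adjusted p = 0.309 from limma). In control mice the response to pregnancy was 0.47 (SE 0.33), and the responses on the 2 diets differed by -1.22 (SE 0.47, limma, unadjusted p = 0.0178, adjusted p = 0.933). Without HF non pregnant mouse 2 the first difference was -0.49, and without control pregnant mouse 4 the second was -0.57.

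Ccl2 was close to the threshold of expression. Its intensities were 80.0, 88.3, 106, 135 and 83.4 in HF pregnant mice, against 113, 166, 116, 76.8 and 169 in HF non pregnant mice. Control pregnant mice had 64.9, 121, 99.5, 144 and 129, and control non pregnant mice 71.1, 137, 94.7, 91.4 and 129. A value under 100 was found in 9 of the 20 mice, in every group. On the HF diet pregnant mice differed from non pregnant mice by -0.35 on the log2 scale (SE 0.25, 95% interval -0.87 to 0.17, limma, unadjusted p = 0.177), and among non pregnant mice HF differed from control by 0.28 (SE 0.25, interval -0.24 to 0.79). The intervals leave room for a change in either direction.

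The receptor Ccr2 was above 100 in all mice, with an SD of 0.15 log2 units in HF pregnant, 0.10 in control pregnant, 0.46 in HF non pregnant and 0.34 in control non pregnant mice; these spreads were not tested against each other. Intensities were 232, 291, 286, 302 and 284 in HF pregnant mice and 240.1, 284, 242, 267 and 258 in control pregnant mice. HF non pregnant mice had 337, 457, 339, 263 and 195, and control non pregnant mice 376, 482, 290.5, 307 and 265. Over both diets Ccr2 was at -0.26 in pregnant relative to non pregnant mice (SE 0.13, 95% interval -0.53 to 0.01, n = 10 mice on each side, limma, unadjusted p = 0.06, adjusted p = 1). In control mice alone it was at -0.38 (SE 0.18, unadjusted p = 0.0511, adjusted p = 0.963 from limma). The other 3 probe sets of Ccr2 did not pass the filter, and their correlation with the set used was 0.27, 0.88 and 0.64 over 20 arrays.

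Ccl6 and Ccl9, neighbours in the second cluster, followed each other from mouse to mouse and showed no difference between groups beyond their spread. Ccl6 had intensities of 1128, 1482, 1480.2, 1804 and 3063 in HF pregnant mice, against 1335, 2495, 2130.3, 1127 and 849.9 in HF non pregnant mice. Control pregnant mice had 1349, 921, 2121, 1570.2 and 2033, and control non pregnant mice 1374, 2458, 2316, 1529 and 1517. Ccl9 ranged from 622 to 1476 in HF pregnant, 411 to 1016 in control pregnant, 482 to 1416 in HF non pregnant and 636 to 1316 in control non pregnant mice. HF pregnant mouse 5 was the highest of the 20 for both genes, at 3063 for Ccl6 and 1476 for Ccl9. The differences between groups lay between -0.28 and 0.20 log2 units for Ccl6 (SE 0.31) and between -0.13 and 0.17 for Ccl9 (SE 0.33) in the 4 comparisons of a pair of groups. Without both arrays that stood apart in pancreatic genes, 3 of these differences changed sign and none passed limma's test. In pregnant mice, HF compared with control, Ccl9 was then at -0.06, against 0.17 with all arrays, and Ccl6 at -0.04, against 0.14. In control mice, pregnant compared with non pregnant, Ccl9 was then at 0.03, against -0.13. The second probe set of each gene followed the first closely (r = 0.97 for Ccl6 and 0.95 for Ccl9 over 20 arrays), and neither passed the test.

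Ccl5 varied more between mice of the same group than nearly any other gene on the array. Intensities were 2724, 2094, 3297, 3425 and 209 in HF pregnant mice, against 174, 4763, 402, 2868 and 1258 in control pregnant mice. They were 4099, 866, 1983, 1717 and 4457 in HF non pregnant mice, against 407, 255, 1407, 1618 and 2242 in control non pregnant mice. The lowest and the highest of all 20 values, 174 and 4763, both came from control pregnant mice. The SD within groups was 1.55 log2 units, above that of 99.7% of the probe sets kept, whose median SD was 0.23. HF relative to control, over both states of pregnancy, gave 1.02 log2 units with an interval of -0.35 to 2.38 (SE 0.65, limma, adjusted p = 0.275). The interval spans 0, so that no difference was detectable with 10 mice on each side at this spread.

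Cxcl10 was higher on average on the HF diet. Its intensities were 414, 363, 489, 670.5 and 105 in HF pregnant mice, against 40.4, 413, 85.6, 388 and 182 in control pregnant mice. HF non pregnant mice had 339, 145, 278, 201 and 290.2, against 103, 77.0, 103, 140.2 and 346 in control non pregnant mice. The groups overlapped: 1 of the 5 HF pregnant mice was at 105, and 1 of the 5 control non pregnant mice was at 346. Averaged over pregnancy, the difference between HF and control mice was 1.0 log2 unit (SE 0.42, 95% interval 0.11 to 1.89, limma, unadjusted p = 0.029, adjusted p = 0.139), or 2.0-fold. Values under 100 were found in 3 mice, all on the control diet.

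Cxcl12 had the smallest p of the 10 genes for diet in non pregnant mice and over both states of pregnancy, while in pregnant mice Ccl8 did. Intensities were 3753, 2799.65, 4940.05, 4466 and 1828 in HF pregnant mice, against 856, 3545, 1354, 3911 and 2272 in control pregnant mice. They were 4038, 1623, 2925, 1959 and 4357 in HF non pregnant mice, against 1238, 985, 1603, 1479 and 1779 in control non pregnant mice. No control non pregnant mouse exceeded 1779, and 4 of the 5 HF non pregnant mice lay above all of them. In the non pregnant state HF mice were 1.0 log2 unit above control (SE 0.39, 95% interval 0.18 to 1.82, limma, unadjusted p = 0.0194, adjusted p = 0.281). In the pregnant state the difference was 0.71 (SE 0.39, adjusted p = 0.443 from limma), and over both it was 0.85 (SE 0.28, interval 0.27 to 1.43, unadjusted p = 0.00615, adjusted p = 0.0896), or 1.81-fold. Without control pregnant mouse 2, which stood apart in pancreatic genes, the difference over both states was 0.95 and passed the test (adjusted p = 0.0316), as it did without both arrays that stood apart (0.96, adjusted p = 0.0488). Calls over the whole array moved as well. For this comparison 246 of 19802 probe sets passed with all arrays, against 41 to 4321 with 1 array left out. Without both arrays more probe sets passed too, as given in the last section, so this call is not particular to Cxcl12.

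**Figure D2:**
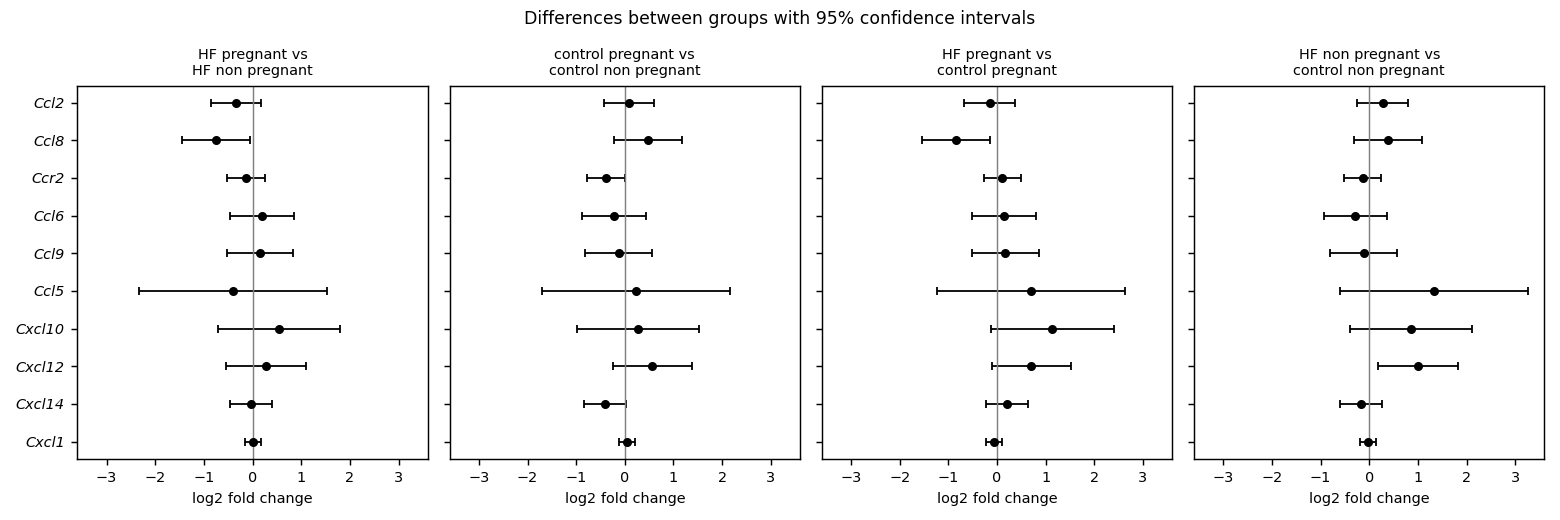
Log2 fold change (points) with the 95% confidence interval from limma (bars) of the 10 genes in the 4 comparisons of a pair of groups, 5 mice each. The intervals of Ccl8 leave out 0 in both comparisons of HF pregnant mice and that of Cxcl12 does so between the non pregnant groups, before adjustment for 19802 tests.

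The result for Cxcl12 rests on 1 of its probe sets. The set used ranged from 856 to 4940.05 over the 20 mice, while the next set, which also passed the filter, ranged from 670 to 1043, with a correlation of 0.31 between them. The next set had medians of 878 in HF pregnant, 819 in control pregnant, 839 in HF non pregnant and 758 in control non pregnant mice. Its difference between HF and control mice was 0.11 log2 units over both states of pregnancy (SE 0.08, limma, unadjusted p = 0.173, adjusted p = 0.318), against 0.85 for the set used. The third set stayed under 100 on all arrays. With the mean of all probe sets of the gene the difference was 0.29 (adjusted p = 0.0882). Which transcripts of Cxcl12 each set reads was not tested.

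**Figure D3:**
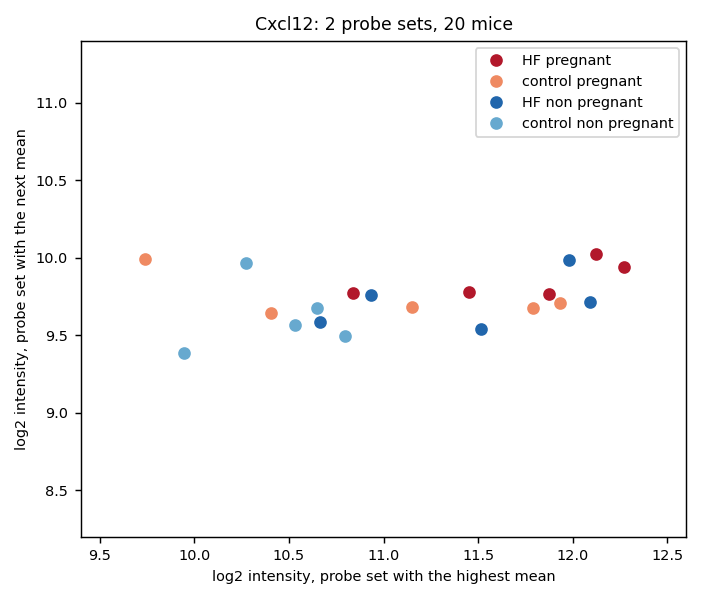
Log2 intensity of the next Cxcl12 probe set (vertical axis) against the set used (horizontal axis), 1 point per mouse, with axes of equal length in log2 units. The points spread along the horizontal axis and hardly along the vertical one.

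Cxcl14 and Cxcl1 gave little to compare. Cxcl14 was under 100 in 15 of 20 mice, among them all mice of both pregnant groups, where it ranged from 64.9 to 98.2 in HF and from 55.7 to 85.2 in control mice. It ranged from 60.3 to 110.2 in HF non pregnant and from 62.0 to 123 in control non pregnant mice, and its second probe set followed the first with r of 0.90. Cxcl1 was the flattest gene on the set used, at 135 to 175 over all 20 mice, with an SD within groups of 0.11 log2 units, in the lowest 8.28% of probe sets. Its 3 probe sets disagreed: the others correlated with the set used at 0.50 and 0.21, and the third had a mean intensity of 51.1. In non pregnant mice, HF compared with control, the second set, which also passed the filter, was at 0.28 log2 units (SE 0.13, limma, unadjusted p = 0.0439, adjusted p = 0.281), against -0.03 for the set used (SE 0.08). The name of the set used ends in _x_at, the manufacturer's mark for probes that may also bind other transcripts, so its flat values may not be those of Cxcl1.

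Across mice, the chemokine genes fell into sets that moved together within groups. With group means removed, 7 of 45 pairs of genes passed an adjusted p of 0.05 (permutation test within groups, 100000 draws, two-sided, Benjamini-Hochberg over the 45 pairs). Ccl6 and Ccl9 gave r = 0.97 (Spearman's rho 0.98). Ccl5 gave 0.93 with Cxcl10 (rho 0.94) and 0.92 with Cxcl12 (rho 0.94), and Cxcl10 gave 0.91 with Cxcl12 (rho 0.89). All 4 of these pairs had a permutation p of 1e-05 for r and for rho, the smallest that the draws can give (adjusted p = 0.000112), and r stayed between 0.84 and 0.97 without the 2 mice farthest from the median of the first gene (adjusted p = 0.000225 in each). Ccl8 went with Ccl9 at 0.68 (rho 0.73) and with Ccl6 at 0.66 (rho 0.69), with permutation p of 0.00613 and 0.00727 (adjusted p = 0.0494 for both); for rho p was 0.00168 and 0.00365, and r without 2 mice was 0.70 in both. Ccl5 went against Ccl9, at -0.59 (permutation p = 0.00768, adjusted p = 0.0494), but not past the test with rho (-0.53, p = 0.0194, adjusted p = 0.109) or without 2 mice (-0.57, adjusted p = 0.209). Ccl2 and Ccl8, both monocyte attractants of the first cluster, had r = 0.59 (rho 0.52), which did not pass (permutation p = 0.0202 and 0.0355, adjusted p = 0.101 and 0.153). The pairs of Cxcl12 were tested on the set used only, which had a correlation of 0.31 with the next Cxcl12 set.

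**Figure D4:**
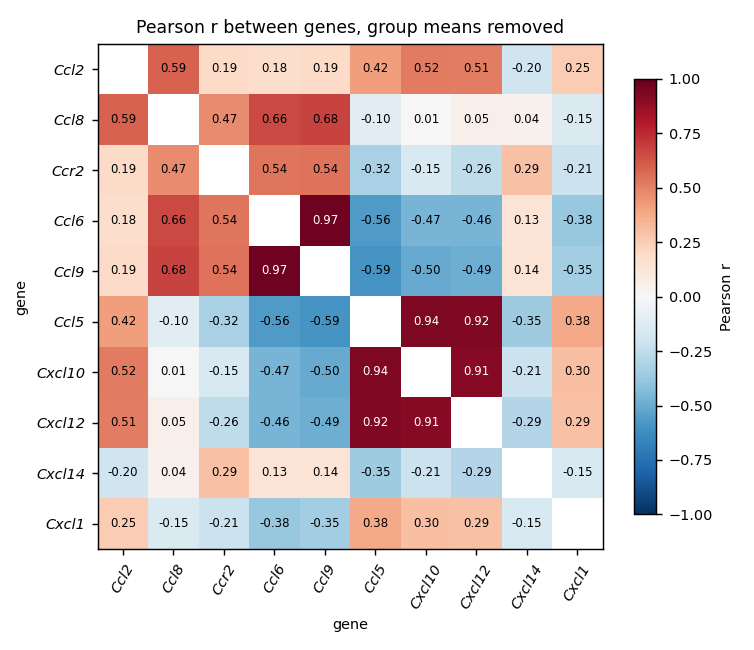
Pearson r between each pair of the 10 genes over 20 mice, with group means removed. Ccl5, Cxcl10 and Cxcl12 form one block (0.91 to 0.93), Ccl6 and Ccl9 another (0.97), and the values between the blocks are negative. Cxcl12 is shown by the set used only.

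Markers of T and NK cells moved with Ccl5, Cxcl10 and Cxcl12, mouse by mouse. A score per mouse was the mean log2 deviation of the markers of a list from their means over all arrays, with 16 of 24 listed T and NK cell genes and 27 of 30 macrophage and monocyte genes measured; none of the 10 genes is in either list. With group means removed, 20 relations were tested by permutation within groups (100000 draws, two-sided), and 9 passed an adjusted p of 0.05. The T and NK cell score correlated with Ccl5 at r = 0.99 (rho 0.98), Cxcl12 at 0.94 (rho 0.96) and Cxcl10 at 0.93 (rho 0.92). Each had a permutation p of 1e-05 for r and for rho, the smallest possible, with an adjusted p of 6.67e-05. Without the 2 mice farthest from the median score, control pregnant mouse 1 and HF pregnant mouse 5, r was 0.98, 0.92 and 0.87. Ccl9 and Ccl6 ran the other way, at -0.59 and -0.58 (permutation p = 0.0096 and 0.0139, adjusted p = 0.0266 and 0.0308). With rho, at -0.54 and -0.55 (adjusted p = 0.0532 for both), and without the same 2 mice, at -0.56 and -0.59 (adjusted p = 0.116 and 0.0986), they did not pass. The next Cxcl12 probe set had r = -0.01 with the T and NK cell score. A B cell score, built in the same way, had the same sign as the T and NK cell score in every mouse. In control pregnant mouse 1 these scores were -2.74 and -1.59, and in HF non pregnant mouse 5 they were 2.14 and 1.37. Relations of the genes to the B cell score were not tested, so these values do not single out T and NK cells.

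The macrophage and monocyte score correlated with Ccl2 at r = 0.75 (rho 0.63, permutation p = 0.00098 and 0.00491, adjusted p = 0.0049 and 0.0245). It also went with Cxcl12 at 0.73, Cxcl10 at 0.71 and Ccl5 at 0.63 (adjusted p = 0.00976, 0.0115 and 0.0266 by permutation; rho 0.65, 0.58 and 0.55, adjusted p = 0.0334, 0.0532 and 0.0678). Without the 2 mice farthest from the median score, control non pregnant mouse 1 and control pregnant mouse 1, r was 0.58, 0.61, 0.56 and 0.44, and none passed after adjustment (permutation p = 0.0255, 0.0206, 0.0269 and 0.0954; adjusted p = 0.0896 for the first 3 and 0.171 for Ccl5). Ccr2, the receptor of recruited monocytes, had r = 0.22 with this score (permutation p = 0.308, adjusted p = 0.401), and Ccl8 had 0.47 (permutation p = 0.0625, adjusted p = 0.125). The relation of Cxcl12 held on the set used only: the next probe set had r = -0.38 with the macrophage and monocyte score. The Ccr2 sets that did not pass the filter had 0.59, 0.215 and 0.08.

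**Figure D5:**
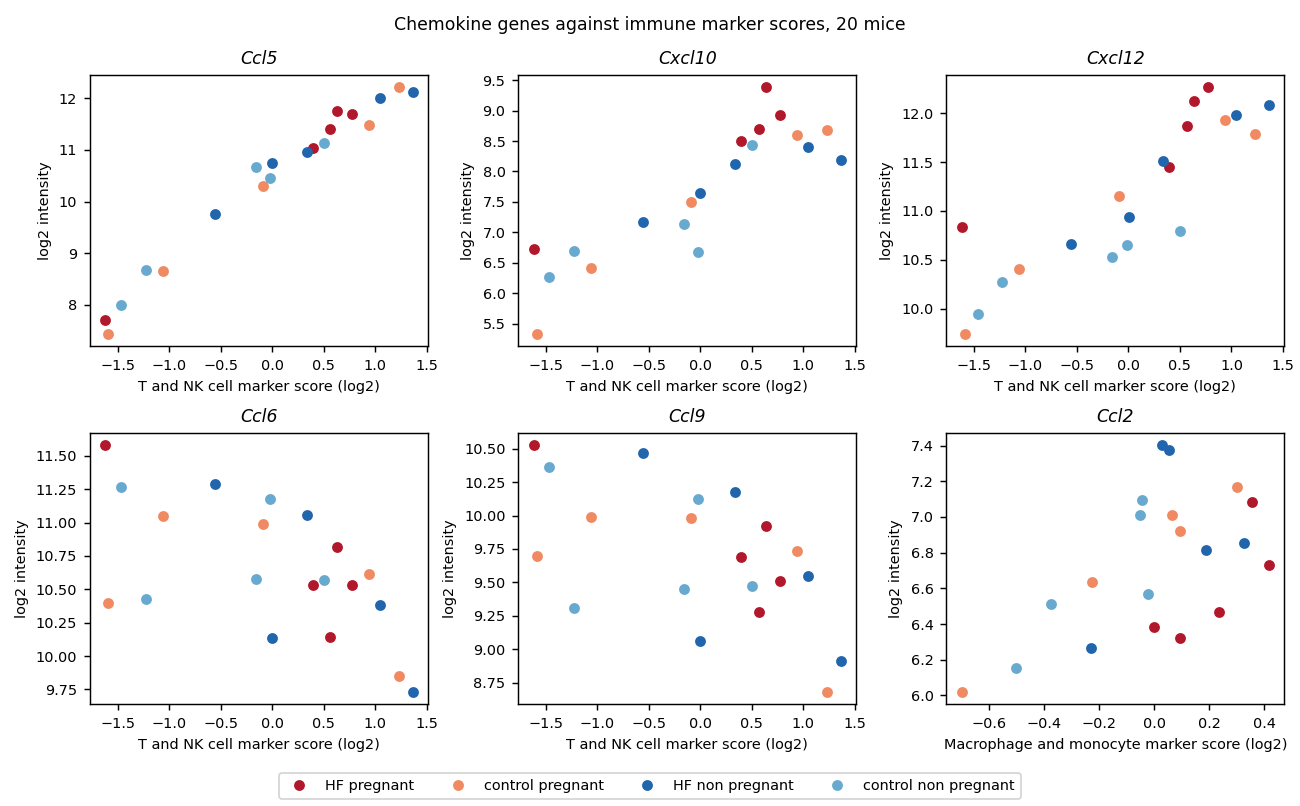
Log2 intensity of Ccl5, Cxcl10, Cxcl12, Ccl6 and Ccl9 against the T and NK cell marker score, and of Ccl2 against the macrophage and monocyte marker score, 1 point per mouse. Ccl5 lies nearly on a line (r = 0.99 with group means removed), and Cxcl10 and Cxcl12 follow the score with more spread.

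The scores of lymphoid markers and of macrophage and monocyte markers overlapped between the diets. The T and NK cell score ranged from -1.62 to 0.77 in HF pregnant mice, against -1.59 to 1.23 in control pregnant mice, and from -0.56 to 1.37 in HF non pregnant mice, against -1.47 to 0.50 in control non pregnant mice. The B cell score, from 11 of 15 listed genes, ranged from -1.68 to 1.17 in HF pregnant, -2.74 to 1.51 in control pregnant, -0.63 to 2.14 in HF non pregnant and -2.10 to 0.61 in control non pregnant mice. The macrophage and monocyte score had means of 0.22 in HF pregnant, -0.09 in control pregnant, 0.07 in HF non pregnant and -0.20 in control non pregnant mice. Of its 27 genes, 22 had positive fold changes for HF relative to control over both states of pregnancy (median 0.32). At an unadjusted p under 0.05 from limma, 8 were higher and 1 lower, against 29.6% of all probe sets, and 0 passed the adjusted p. For HF relative to control over both states of pregnancy, 15 of 16 T and NK cell genes and 11 of 11 B cell genes had positive fold changes, with medians of 0.63 and 1.19, beside 0.04 over all 19802 probe sets, and 0 of either list passed limma's adjusted p, against 1.24% of all probe sets (0 and 1 had an unadjusted p under 0.05, against 29.6%). With the mean of the B cell and T cell scores as a covariate, a choice made after the data were seen, the difference between HF and control mice was 0.39 for Cxcl12 (adjusted p = 0.0949), 0.30 for Cxcl10 and -0.13 for Ccl5. The differences of Ccl8 were hardly moved by it, at -0.76 for HF pregnant against HF non pregnant and -0.82 for HF pregnant against control pregnant mice. With group means removed, the T and NK cell score had r = -0.09 with Ccl8, against 0.99 with Ccl5, 0.94 with Cxcl12 and 0.93 with Cxcl10. What the covariate moved and what it left therefore largely follows from these correlations and is no separate test. Neither the part of lymphoid cells nor that of macrophages in these differences was tested.

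The genes whose log2 values were most like each of the 10 over the 20 arrays were taken from 10602 others. For Ccl5 they were Epsti1 (r = 0.99), Ms4a4b, a T cell membrane protein (0.99), and Ctsw, a protease of cytotoxic lymphocytes (0.99). For Cxcl10 they were the guanylate-binding protein Gbp8 (0.96), the heparanase Hpse (0.95) and the amino acid transporter Slc7a7 (0.95). For Cxcl12 they were the leptin receptor Lepr (0.98), Sat1 (0.97) and the adhesion molecule Vcam1 (0.97). Ccl6 was most like Cbr2 (0.97), Ccl9 (0.97) and the platelet factor Pf4 (0.94), itself a chemokine, and Ccl9 was most like Ccl6, the coagulation factor gene F13a1 (0.95) and Cbr2 (0.95). Ccr2 was most like Slc44a1 (0.90), Phactr2 (0.88) and Nxpe4 (0.86), and Cxcl14 most like Apbb1 (0.95), Ahi1 (0.94) and Setd7 (0.94). Likeness was lower for Ccl2, with Odc1 at 0.81, Phf6 at 0.79 and Prelid1 at 0.78, and for Ccl8, with the acute phase gene Serpina3n at 0.77, Orc4 at 0.74 and Mindy3 at 0.73. It was lowest for Cxcl1, with Cox8c at 0.64, Ppif at 0.62 and Togaram2 at 0.61. These values include the differences between groups and are given without a test.

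Other genes of the same pathways gave no call either. Of 28 other chemokines 9 were measured, and for HF relative to control over both states of pregnancy 4 had positive and 5 negative fold changes, with 0 past limma's adjusted p, against 1.24% of all probe sets, and 0 with an unadjusted p under 0.05, against 29.6%. The smallest p were those of Cxcl16 (0.38 log2 units, SE 0.19, adjusted p = 0.184) and of Cxcl9, like Cxcl10 a ligand of Cxcr3 (0.50, SE 0.27, adjusted p = 0.201). Of 23 other chemokine receptors 14 were measured, 12 with positive and 2 with negative fold changes and a median of 0.30, beside 0.04 over all probe sets; 0 passed limma's adjusted p and 2 of 14 had an unadjusted p under 0.05, against 29.6% of all probe sets. Those were Ackr1, a scavenger of chemokines on venules and red cells (0.19, SE 0.07, adjusted p = 0.109), and Ccrl2 (0.16, SE 0.08, adjusted p = 0.166). In non pregnant mice, HF compared with control, the receptor of Cxcl12, Cxcr4, was at 1.71 (SE 0.83, limma, unadjusted p = 0.054, adjusted p = 0.281). Of 22 interferon-induced genes 17 were measured, 16 with a positive fold change for diet and a median of 0.22, and 0 passed limma's adjusted p, with 4 of 17 at an unadjusted p under 0.05, against the same 29.6%. Of 20 genes of NF-kB and its cytokines 14 were measured, 11 with positive fold changes and a median of 0.37; 0 passed limma's adjusted p, with 7 of 14 at an unadjusted p under 0.05, 6 higher and 1 lower, against 29.6%. Vcam1, which was like Cxcl12 above, was at 0.95 (SE 0.38, adjusted p = 0.124). In HF mice, pregnant compared with non pregnant, 0 members of any of these 4 lists passed limma's adjusted p, against 0.0252% of all probe sets, and 0 other chemokines, 1 receptor (Ccrl2, 0.24, SE 0.11), 1 interferon-induced gene (Rsad2, 0.91, SE 0.40) and 1 gene of NF-kB and its cytokines (Ier3, 0.67, SE 0.25) had an unadjusted p under 0.05, against 4.66%.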

How the data were processed

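The authors read the scans of 20 mouse arrays into Bioconductor and normalized them with the affy package by robust multi-array average under R 2.8.0; the deposited intensity values are on a linear scale, 1 per probe set and array, for 45101 probe sets. Such normalization gives all arrays one distribution and compresses differences near background. RNA was extracted with Trizol per the labels and on Qiagen columns per the methods. Neither a genome build nor a scan batch is given in the sources used here.

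The intensities were only log2-transformed. The 64 control probe sets were left out, and probe sets above 100 in at least 5 of 20 arrays were kept (19802, 43.9%). Of all probe sets, 34958 carry 1 gene symbol, 932 several and 9211 none; only those with 1 symbol name a gene. Group means were fitted with limma 3.58.1 in R 4.3.3, in which all 4 groups share 1 spread per probe set, for 7 comparisons. The fit was tested on simulated data. Relations across mice and pairs of genes were tested by permutation within groups in Python 3.11.15; the tests of pairs were added after the data were seen. The number of arrays limits the precision. Sequences are from RefSeq (GRCm38.p6).

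The genes named are the 10 genes, the 3 genes most like each over the arrays, and from each other list those past the test or up to 2 with the smallest p; Cxcr4, Ccrl2, Rsad2 and Ier3 follow this rule in the comparison they are named for. The 10 genes and all lists were chosen with earlier results of these data known. Results were recomputed with all probe sets or a filter on their mean, eBayes with a trend and robust variances, weighted arrays, only the groups being compared, median-centred arrays, a second quantile normalization, averaged probe sets for each gene, a floor at 100, the replicate number as a block, single arrays left out, and a looser threshold (1.5-fold and an unadjusted p under 0.05). Those added later were leaving out the 2 arrays with a pancreatic signal and the B and T cell scores as a covariate. Replicate numbers were not taken as pairs.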

Additional observations from a re-analysis of the deposited data

Results flagged for a closer look

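In groups of 5 mice, the gap between the farthest mouse and the next, divided by the range of the group, exceeded Dixon's critical value of 0.71 in 6 of 52 groups tested on the 10 genes and the marker scores; chance flags about 1 in 20 groups. HF pregnant mouse 5 was the lowest of its group for Ccl5, at an intensity of 209.36, and also for the T and NK cell score, at -1.619, and the B cell score, at -1.678, both in log2 units from the mean of all arrays. Ccl8 was highest in control pregnant mouse 4, at 665.22, and Ccl9 was lowest in control pregnant mouse 2, at 410.65, an array that also stood apart in pancreatic genes. Ccr2 was lowest in HF pregnant mouse 1, at 232.15. The values of these mice were kept in all results.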

How the results depend on the processing

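Under the alternatives, 2203 fold changes of the 10 genes were recomputed: 2057 kept their sign and stayed on their side of the threshold, 136 changed sign without passing the test in either setting, and 10 passed the test only under an alternative. Many of these could not change sign. Another filter, other eBayes settings and the block leave a fold change as it was, as does leaving out an array of a group not compared. No gene passed in the main fit, so no call could be lost, and these counts do not measure robustness. With an unadjusted p under 0.05 and a 1.5-fold change, 1 gene was selected for pregnant against non pregnant HF mice, 1 between HF pregnant and control pregnant mice, 1 for HF against control mice without pregnancy, 1 for the difference between the diets, and 2 for HF relative to control mice. In the same order, the unadjusted p alone was met by 4.66%, 12.8%, 17.7%, 3.08% and 29.6% of all probe sets. Their share with the fold change as well is not given here, and counts of 1 or 2 are not a result about the genes. With array weights, which gave HF non pregnant mouse 3 a weight of 11.3 and control pregnant mouse 1 a weight of 0.23, 1 gene passed for pregnant against non pregnant HF mice (Ccl8, -1.09, limma, adjusted p = 0.00294), 3 for HF against control mice without pregnancy (Ccl8, 0.65, Cxcl10, 0.96, and Cxcl12, 0.99), 2 for HF relative to control (Cxcl10, 1.12, and Cxcl12, 0.87) and 2 for pregnant relative to non pregnant mice (Cxcl12, 0.56, and Ccr2, -0.30). The counts of all probe sets with these weights follow below, except for pregnant relative to non pregnant mice, where no such count is given here. Without that share, the calls of Cxcl12 and Ccr2 in that comparison are not a result about these genes. When each array was left out in turn, 0 to 1 genes passed for HF relative to control mice and 0 in the other 6 comparisons; without the 2 arrays with a pancreatic signal 1 passed for HF relative to control mice. Of the 20 relations to marker scores, 9 passed in the main test, 5 with Spearman's rho and 3 without the 2 mice farthest from the median score. Over all probe sets, the count for HF relative to control mice was 246, against 41 to 4321 with 1 array left out, 112 without a filter, 161 with a floor at 100, 9136 with array weights, 105 with the B and T cell covariate and 2011 without the 2 pancreatic arrays. Between HF pregnant and control pregnant mice it was 38, against 15 to 62 with 1 array left out, 25 without a filter, 64 in a fit to these groups alone, 1365 with array weights and 131 with the covariate. For pregnant against non pregnant HF mice it was 5, against 3 to 10 with 1 array left out, 0 in a fit to these groups alone, 2679 with array weights and 16 with the covariate. For HF against control mice without pregnancy it was 0, against 7489 with array weights.

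With the replicate number as a block, 0 of the 10 genes passed in any comparison. Every group holds the same numbers, so the block could change the test but not the fold change or its sign. The counts of all probe sets were 3 for pregnant against non pregnant HF mice, 17 between HF pregnant and control pregnant mice and 19 for HF relative to control mice. Arrays of the same number in different groups had deviations with a median correlation of -0.16 over 30 pairs (-0.75 to 0.67), 10 of them over 0.1, so the numbers were not taken as pairs.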
